A study of Homo sapiens with 9 samples.

Results

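The genes described here are 47 genes of G2 and mitosis, the stretch of the cell cycle in which a cell with copied DNA prepares to divide and then separates its chromosomes. They were chosen by symbol, as every probe of the deposited table whose gene symbol is on the list, and 72 of 43906 named probes carried one. Of the 47 genes, 46 entered the tests among 15387 genes in all; the only probe of NCAPH, a condensin subunit, lay above background on 0 of the 9 arrays. The probes were on Illumina expression arrays of total RNA from whole tumours of Hep3B, a human hepatocellular carcinoma line grown as an implant in the liver of Nod/Scid mice, an immunodeficient strain. After about 5 weeks of growth the mice received 1 intravenous injection, and tumours were taken 24 hours later. All 3 groups carried the same tumour in the same strain: 3 arrays came from mice given dilution buffer, 3 from mice given empty liposomes and 3 from mice given MRX34, in which liposomes carry a synthetic miR-34a. The empty liposomes carry the lipid vehicle without the mimic, so MRX34 against empty liposomes asks about the RNA cargo and empty liposomes against buffer asks about the vehicle. No group received liposomes with another RNA, so the miR-34a sequence and the presence of any RNA cargo cannot be told apart.

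G2 and mitosis genes are switched on together late in the cell cycle. Cyclin B1 with its kinase CDK1 drives entry into mitosis, Aurora and Polo kinases build the spindle, the checkpoint holds anaphase until every kinetochore is attached, and the anaphase-promoting complex then ubiquitinates securin and cyclin B. The MuvB core, which joins B-MYB and FOXM1 in dividing cells and the DREAM repressor in resting cells, binds their promoters at the cell cycle genes homology region, CHR, and NF-Y binds CCAAT boxes nearby. p53 represses many of them through p21 and DREAM. miR-34a is a p53 target that pairs through its seed with transcripts of cell cycle genes, among them cyclin D1 and CDK6. Proliferating tumour cells keep this programme active, and MKI67 and TOP2A are used as proliferation markers in liver cancer.

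The mature sequence of the microRNA that MRX34 mimics is shown with the seed, bases 2 to 8, in capitals. It is RefSeq's for GRCh38.p14, at chr1:9151735-9151756 on the minus strand.
hsa-miR-34a-5p: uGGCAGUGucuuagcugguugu

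The promoters of 6 members are shown because they hold the elements that the genes share. Each is the 150 bases before the gene start in RefSeq's GRCh38.p14 annotation, read 5′ to 3′ on the gene's strand, with the CHR (TTTGAA, or the variant TTCGAA) and the CCAAT box in capitals on either strand, so that TTCAAA and ATTGG mark the reverse strand. MKI67 lies at chr10:128126424-128126573 on the minus strand. The other 5 lie on the plus strand: HMMR at chr5:163460482-163460631, CDC20 at chr1:43358831-43358980, KIF4A at chrX:70289954-70290103, PLK1 at chr16:23678739-23678888 and KIF11 at chr10:92592980-92593129.
MKI67: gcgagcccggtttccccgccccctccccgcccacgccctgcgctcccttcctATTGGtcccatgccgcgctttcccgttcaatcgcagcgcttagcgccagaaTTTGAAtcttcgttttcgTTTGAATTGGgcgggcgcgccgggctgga
HMMR: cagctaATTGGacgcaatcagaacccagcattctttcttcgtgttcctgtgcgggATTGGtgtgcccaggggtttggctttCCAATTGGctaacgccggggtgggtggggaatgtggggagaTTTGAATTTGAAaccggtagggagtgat
CDC20: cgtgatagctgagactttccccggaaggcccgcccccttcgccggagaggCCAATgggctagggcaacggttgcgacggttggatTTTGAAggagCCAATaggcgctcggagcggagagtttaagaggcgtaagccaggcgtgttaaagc
KIF4A: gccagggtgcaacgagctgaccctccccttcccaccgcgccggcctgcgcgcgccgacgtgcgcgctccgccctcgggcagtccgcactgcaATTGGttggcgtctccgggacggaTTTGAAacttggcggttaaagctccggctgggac
PLK1: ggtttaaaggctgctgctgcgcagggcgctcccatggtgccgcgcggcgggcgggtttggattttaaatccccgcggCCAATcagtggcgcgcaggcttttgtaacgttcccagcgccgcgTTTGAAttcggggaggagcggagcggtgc
KIF11: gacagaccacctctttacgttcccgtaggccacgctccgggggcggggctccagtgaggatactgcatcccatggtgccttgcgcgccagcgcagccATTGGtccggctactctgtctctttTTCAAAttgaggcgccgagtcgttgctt

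RefSeq's promoter table held 47 entries for 40 of the members, each from 250 bases before the start to 50 after it, and both strands were searched. The CHR spelled TTTGAA was in 29 of the 47 entries (61.7%), belonging to 28 members, against 15.16% of all 35116 promoters of the same length and 10.78% of the 14209 promoters of genes tested on the arrays. CCAAT was in 34 of 47 entries (72.3%), of 31 members, against 34.61% of all promoters. The variant TTCGAA was in 4 entries (8.51%, against 1.447%) and TTTAAA, another reported CHR spelling, in 15 (31.9%, against 12.24%). E2F sites, searched as TTTCGCGC, TTTGGCGC, TTTCCCGC and TTTGCCGC, were in 2 entries (4.26%). They were in 3.315% of all promoters and in 4.828% of the promoters of genes tested on the arrays. Any of the 3 CHR spellings was found in 40 entries (85.1%) against 25.05% of all promoters. Entries of the same gene overlap, and a match says only that the letters are in the window.

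Many of the CHR matches lay just before the gene start. In a stretch of 10 to 40 bases before the start, chosen after the positions were seen, TTTGAA began in 15 of the 47 member promoters (31.9%) and in 580 of all promoters (1.652%). The members with a CHR there included CCNB2, PLK1, INCENP, CDCA8, BUB1B, CENPA, KIF11, KIF4A, KIF18A, HMMR, PRC1, ANLN, ESPL1, MKI67 and NCAPG. HMMR carried it in tandem, next to a cluster of CCAAT boxes. CCNA2, NEK2 and AURKB had a CCAAT box and none of the 3 CHR spellings in the entry plotted. CDC25B, with 4 entries, had neither in the entry plotted, while its entry 3 held TTCGAA 38 and CCAAT 73 bases before the start.

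**Figure D1:**
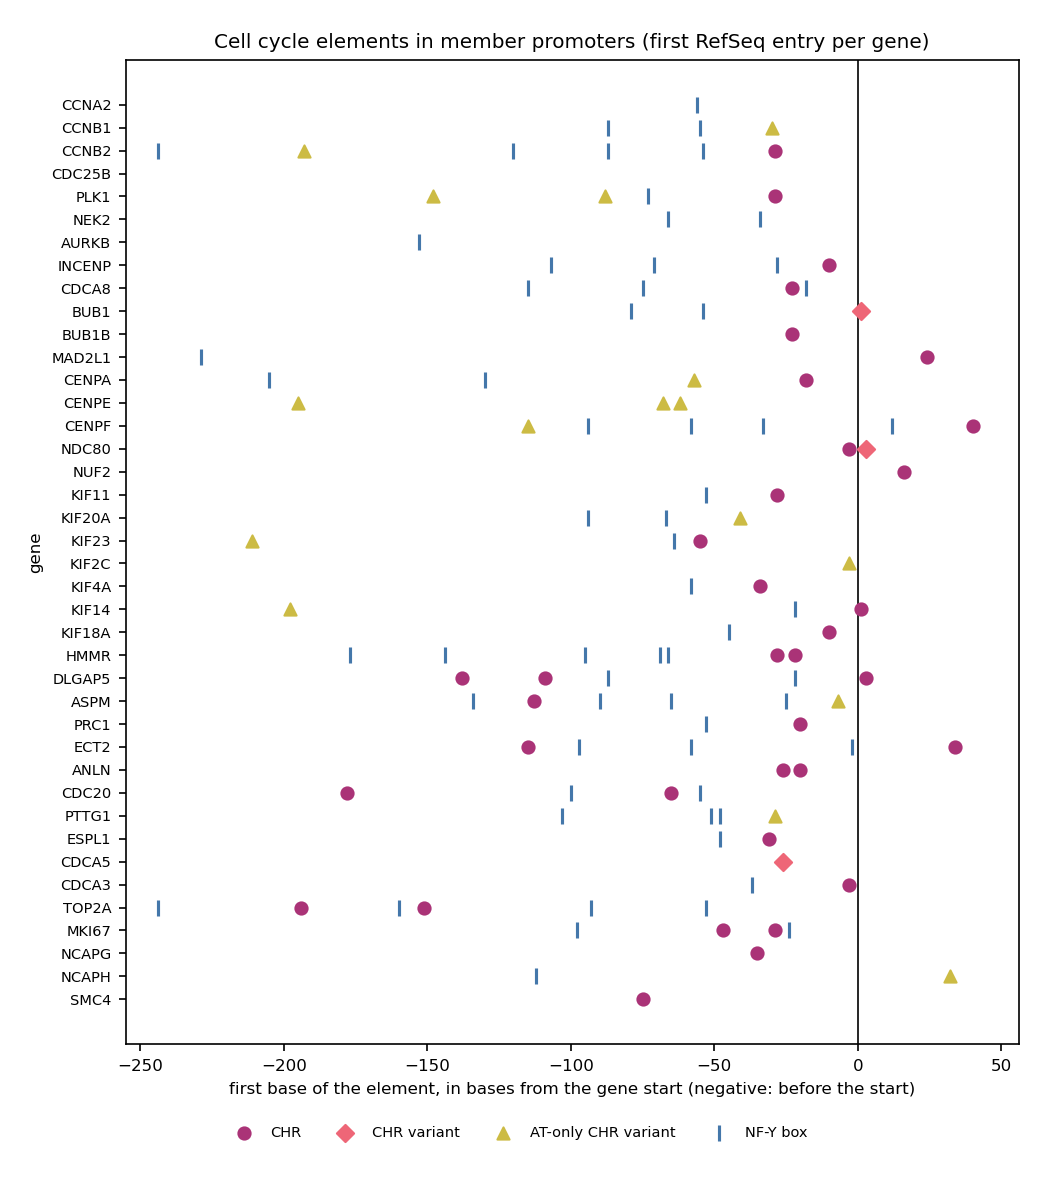
Positions of CHR spellings and of the NF-Y box (CCAAT) in the first RefSeq promoter entry of 40 members, in bases from the gene start, which the vertical line marks. Circles, diamonds and triangles are the CHR (TTTGAA), the variant TTCGAA and the AT-only variant TTTAAA, and bars are NF-Y boxes on either strand; most CHR marks lie within 50 bases of the start.

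The arrays differed in brightness before normalization, with mean background-subtracted intensities of 163 to 616 and 13690 to 20459 named probes above background per array. All values below are log2 intensities after quantile normalization, and a gene was represented by its brightest probe. Of the 46 tested members, 45 lay above background on 9 arrays and MKI67 on 6. Over the 9 arrays, the highest and lowest value of a member differed by 1.23-fold to 3.42-fold, with a median of 1.80-fold. The median residual SD of a member within the groups was 0.274 log2 units, against 0.240 for 42 genes of DNA replication and S phase and 0.342 for all genes. With 3 arrays a group the standard error of MRX34 against both controls was 0.148 to 0.298 log2 units over the members. The labels do not say that each array is a separate animal, so the p-values rest on the spread among these 9 samples, which may be technical.

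All 7 tumour markers of Hep3B and liver origin passed the detection filter, and their summed intensity was 169100 to 182000 with MRX34, 172400 to 187300 with buffer and 163300 to 181400 with empty liposomes. HNF4A was dim and lay above background on 8 arrays, the others on 9. The host is a mouse, and which of these human probes also bind mouse transcripts was not tested, so the sums of cell types other than the tumour cannot be read as amounts of human or mouse cells. The macrophage list, of which 4 of 6 genes passed the detection filter, summed to 2871 to 3219 with MRX34, against 2000 to 2393 with buffer and 2137 to 2949 with empty liposomes. That sum is mostly CD68, at a mean log2 intensity of 11.39 with MRX34, 10.96 with buffer and 11.00 with empty liposomes. With MRX34 the means of CD14, CSF1R and VSIG4 lay between those of the control groups. CD163 lay below both and MARCO above both, each above background on 1 array. Of the lymphocyte list 3 of 6 genes passed, at sums of 106 to 172, 92.9 to 115 and 88.5 to 150 in the same order of groups, and PTPRC, CD3E and NKG7 were above background on 0 arrays. Of the endothelial list only PECAM1 passed, and the 5 probes summed to 83.1 to 88.4 with MRX34, against 57.8 to 67.0 and 55.0 to 71.7. Of the fibroblast list 3 of 5 genes passed, at sums of 1002 to 1224, 836 to 1582 and 1298 to 2200, with LUM above background on 0 arrays; all 4 erythrocyte genes passed, at 14530 to 33450, 13040 to 32900 and 23620 to 31930. Adult liver enzymes, GNMT and OTC, ranged widely in every group, from 394 to 4725 with MRX34, 564 to 48010 with buffer and 4014 to 30820 with empty liposomes. Apart from the liver enzymes, which were also used as a covariate, the part of these cells in the results was not tested. In whole tumours, fewer cells of a type and less RNA per cell cannot be told apart.

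None of the G2 and mitosis genes differed between MRX34 and both controls past the threshold of an adjusted p under 0.05. In limma's moderated test with Benjamini-Hochberg adjustment, 0 of the 46 members and 0 of all 15387 genes (0%) passed. The smallest adjusted p was 0.374 among the members and 0.0972 among all genes. The members lay on both sides of 0: 26 were higher and 20 lower with MRX34, with a median log2 difference of 0.05 and a range from -0.62 to 0.71. Over all genes 54.9% were higher and the median was 0.04. At an unadjusted p under 0.05, 4 members stood out (8.70%), against 11.1% of all genes. NUF2 was the 1 that was higher, where 6.87% of all genes were, and UBE2C, TPX2 and AURKB were the 3 that were lower, where 4.24% of all genes were. A difference under 0.5 log2 units in either direction was seen for 43 of the 46 members.

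**Figure D2:**
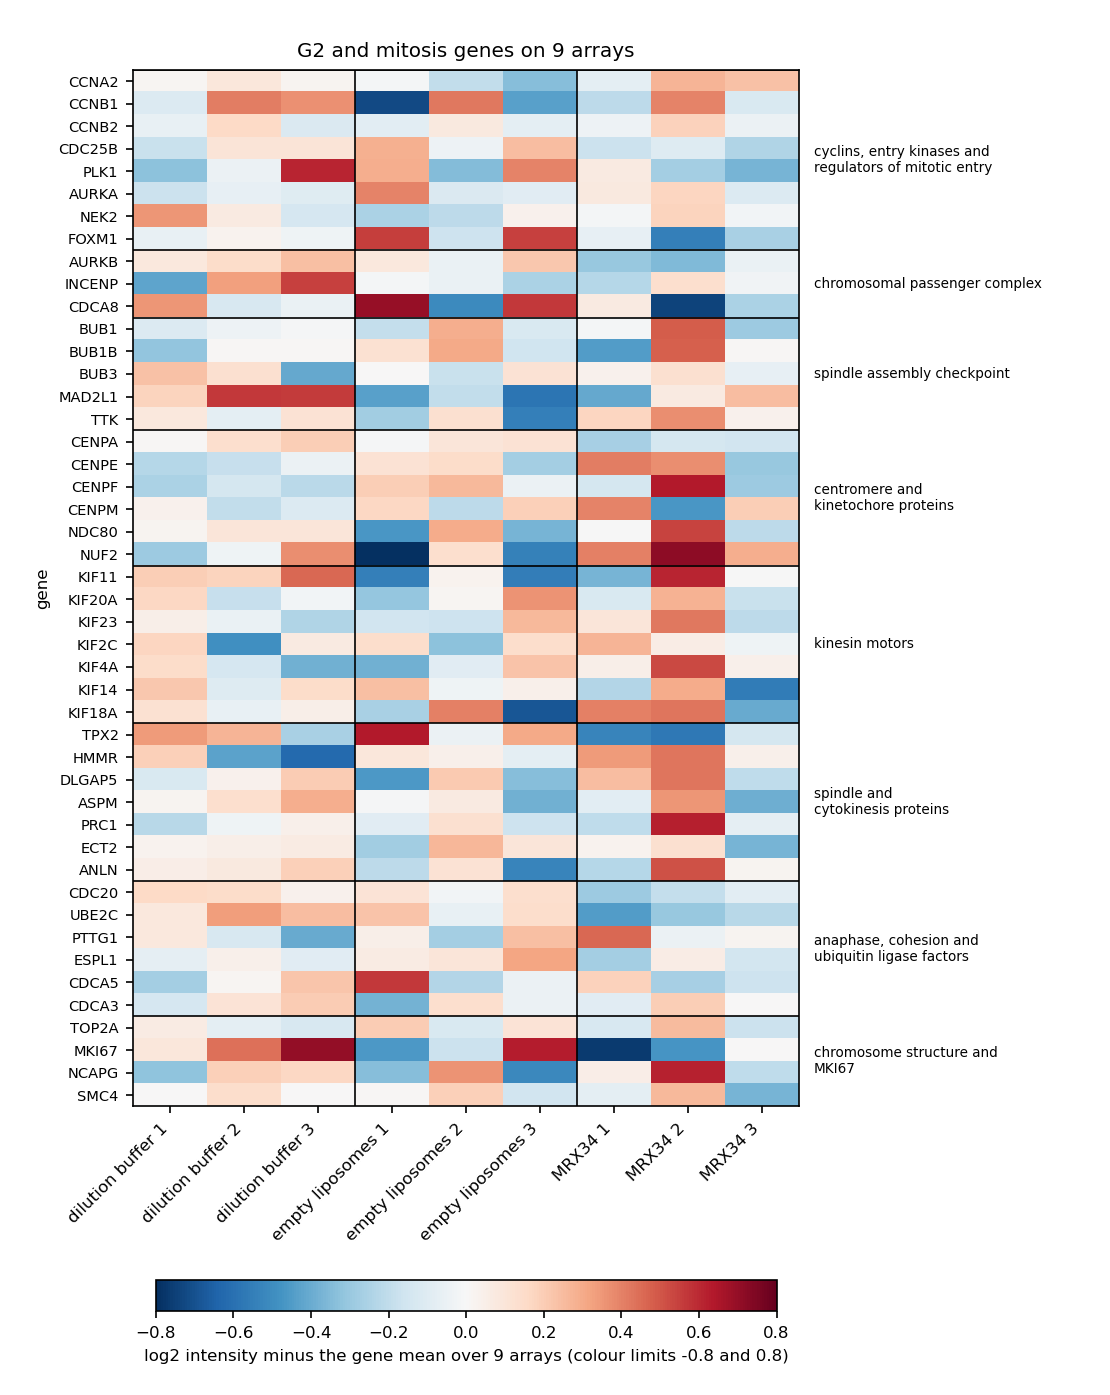
Log2 intensity of each of the 46 tested members on the 9 arrays, as the difference from that gene's mean over all arrays, grouped by role and with lines between the 3 groups of arrays. Colours stop at -0.8 and 0.8; red is above and blue below the gene's mean, and MRX34 2 is above it for 33 of 46 genes.

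The group of anaphase and ubiquitin ligase factors held the member with the smallest p. UBE2C, the ubiquitin-conjugating enzyme that starts chains for the anaphase-promoting complex, read 11.84, 12.08 and 12.00 on buffer arrays 1, 2 and 3, 11.98, 11.69 and 11.89 with empty liposomes and 11.30, 11.45 and 11.53 with MRX34. All 3 MRX34 arrays lay below all 6 control arrays. The difference was -0.49 (SE 0.159, adjusted p 0.374 by limma), and each of the 4 UBE2C probes was lower with MRX34, by -0.50 to -0.35. Both ends of that range come from dim probes, above background on 8 and 3 arrays, and the other bright probe differed by -0.46. CDC20, the coactivator that directs the same complex to securin and cyclin B, read 11.67, 11.65 and 11.54 with buffer, 11.61, 11.49 and 11.64 with empty liposomes and 11.21, 11.31 and 11.42 with MRX34. Its MRX34 arrays also lay below every control array, by a difference of -0.28 (SE 0.150, adjusted p 0.498). Of the 6 genes in this group 2 were higher and 4 lower with MRX34, at a median of -0.15. PTTG1, which encodes securin, differed by 0.22 (SE 0.203) on the probe used and -0.11 on the other, and ESPL1, the separase that securin holds back, by -0.18 (SE 0.160).

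The chromosomal passenger complex corrects faulty attachments at the centromere and then moves to the spindle midzone. Its kinase AURKB read 10.54, 10.60 and 10.70 with buffer, 10.55, 10.41 and 10.68 with empty liposomes and 10.16, 10.11 and 10.41 with MRX34, a difference of -0.36 (SE 0.159, adjusted p 0.447). The groups did not overlap, but the highest MRX34 array and the lowest control array were both at 10.41 after rounding. INCENP, the scaffold, differed by -0.06 (SE 0.227) and CDCA8, borealin, by -0.46 (SE 0.298). CDCA8 had the widest error of the 46 members. All 3 genes were lower, at a median of -0.36, and 0 passed the test.

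**Figure D3:**
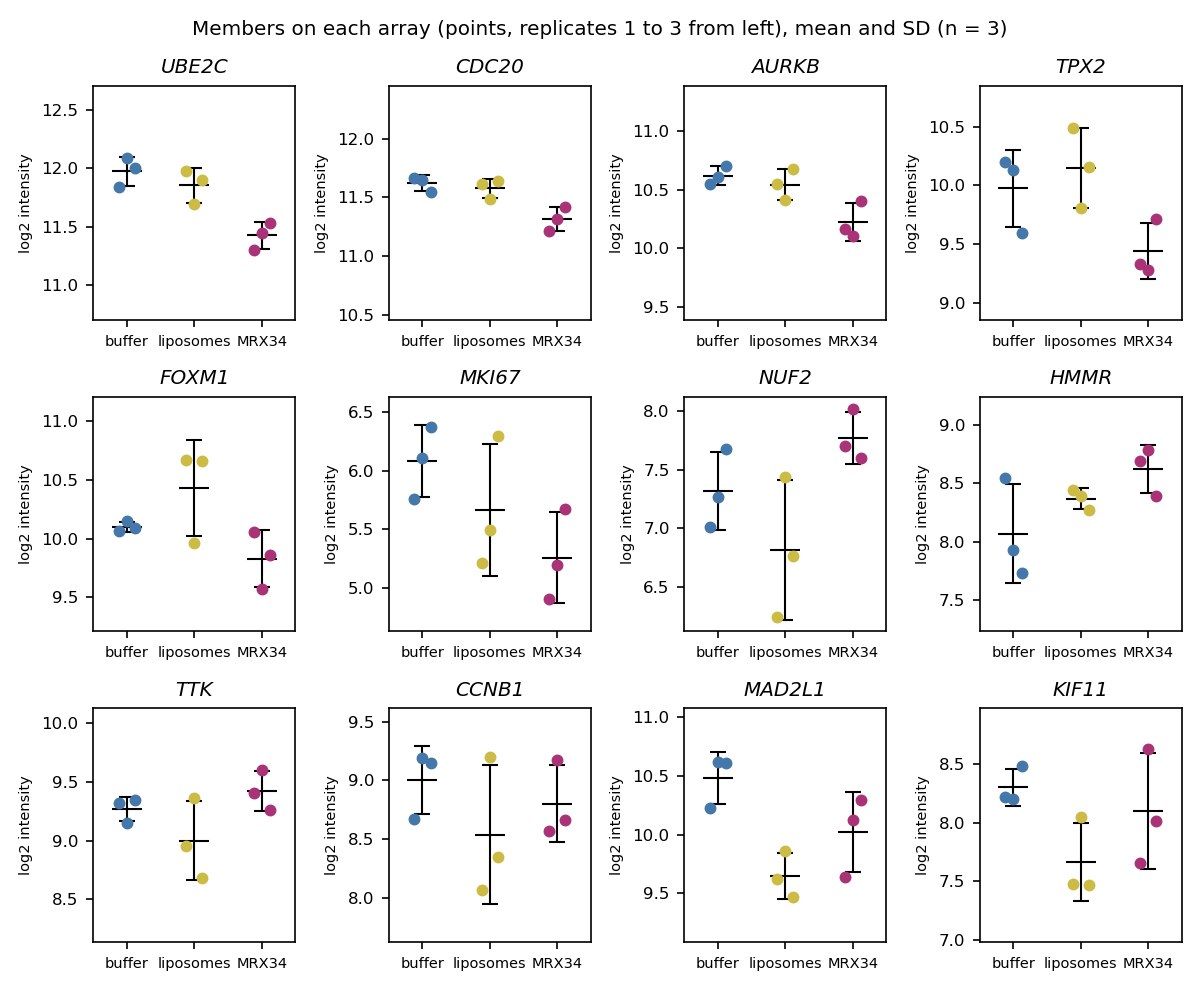
Log2 intensity, by group, of a selection of the members given with every array value. Each array is a point, from replicate 1 at the left to replicate 3 at the right. Bars are the mean and SD (n = 3), and every panel spans 2 log2 units. UBE2C and CDC20 have all 3 MRX34 arrays below all 6 control arrays, and NUF2 has them above the 3 empty-liposome arrays.

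TPX2 and HMMR, both spindle assembly factors, lay on opposite sides of the controls. TPX2, which activates Aurora A on spindle microtubules, read 10.20, 10.13 and 9.60 with buffer, 10.49, 9.81 and 10.16 with empty liposomes and 9.33, 9.28 and 9.72 with MRX34. MRX34 3 overlapped buffer 3, and the difference was -0.62 (SE 0.222, adjusted p 0.395). HMMR, the hyaluronan-mediated motility receptor, also a spindle pole protein, read 8.54, 7.93 and 7.73 with buffer, 8.44, 8.39 and 8.27 with empty liposomes and 8.69, 8.78 and 8.39 with MRX34. Buffer 1 and empty liposomes 1 lay within the MRX34 range, and the difference was 0.40 (SE 0.209, adjusted p 0.489). Its other probe, above background on 9 arrays, differed by 0.10. Among the 7 spindle and cytokinesis proteins 4 were higher and 3 lower, at a median of 0.15. DLGAP5, a microtubule-stabilising spindle protein, differed by 0.23, PRC1, which bundles midzone microtubules, by 0.17, and ANLN, the actin-binding scaffold of the cleavage furrow, by 0.15. ASPM, a spindle pole protein, differed by -0.06, and ECT2, which activates RhoA at the cleavage furrow, by -0.11.

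Kinetochore proteins held the largest difference upward. NUF2, a subunit of the NDC80 complex that grips microtubule ends, read 7.01, 7.27 and 7.67 with buffer, 6.25, 7.44 and 6.76 with empty liposomes and 7.70, 8.02 and 7.59 with MRX34. Its MRX34 arrays lay above all 3 empty-liposome arrays but overlapped buffer 3, for a difference of 0.71 (SE 0.271, adjusted p 0.413). Its partner NDC80 differed by 0.16 (SE 0.232). CENPA, the centromeric histone, read 8.67, 8.79 and 8.85 with buffer, 8.65, 8.75 and 8.77 with empty liposomes and 8.39, 8.51 and 8.50 with MRX34. It was below every control array on all 3 MRX34 arrays, though the difference was only -0.28 (SE 0.148, adjusted p 0.501). Over the 6 genes 5 were higher and 1, CENPA, lower, at a median of 0.13. CENPM, which had 3 probes past the filter, is uncertain, since its probes differed by 0.06, -0.50 and -0.79.

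The spindle assembly checkpoint genes lay close to the mean of both controls. With MRX34 4 of 5 were higher and 1 lower, at a median of 0.05. TTK, the kinase also known as MPS1 that starts checkpoint signalling, had its 3 readings at 9.32, 9.15 and 9.35 with buffer, 8.96, 9.36 and 8.68 with empty liposomes and 9.40, 9.60 and 9.27 with MRX34. The ranges overlapped, and the difference was 0.29 (SE 0.190, adjusted p 0.571). BUB1, a kinase that recruits the passenger complex to centromeres, read 8.51, 8.58 and 8.61 with buffer, 8.43, 8.92 and 8.50 with empty liposomes and 8.61, 9.11 and 8.33 with MRX34. MRX34 2 was its highest array and MRX34 3 its lowest, and the difference was 0.09 (SE 0.208), which turned to -0.12 without MRX34 2. BUB1B, BUB3 and MAD2L1, which together hold CDC20 in the mitotic checkpoint complex, differed by 0.02, 0.05 and -0.05. For MAD2L1 this averages 0.37 (SE 0.235) against empty liposomes and -0.46 (SE 0.235) against buffer. The 4 BUB3 probes ranged from -0.22 to 0.19.

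Among genes of mitotic entry FOXM1 lay farthest from the controls. FOXM1, the transcription factor that joins MuvB at late cell cycle promoters, read 10.07, 10.15 and 10.09 with buffer, 10.67, 9.96 and 10.67 with empty liposomes and 10.05, 9.57 and 9.86 with MRX34. Every MRX34 array lay below the buffer arrays, empty liposomes 2 lay among them, and the difference was -0.44 (SE 0.209, adjusted p 0.465) on the probe used and -0.44 on the other. CCNB1, cyclin B1, read 8.67, 9.19 and 9.15 with buffer, 8.06, 9.20 and 8.35 with empty liposomes and 8.57, 9.18 and 8.66 with MRX34. Its groups overlapped throughout, and the difference was 0.03 (SE 0.276); it was -0.16 without MRX34 2.

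PLK1, the Polo kinase of mitotic entry, read 8.05, 8.33 and 8.99 with buffer, 8.67, 8.03 and 8.78 with empty liposomes and 8.45, 8.11 and 8.01 with MRX34, a difference of -0.29 (SE 0.258). AURKA, the Aurora kinase of the spindle poles, read 10.68, 10.79 and 10.76 with buffer, 11.25, 10.74 and 10.76 with empty liposomes and 10.93, 11.03 and 10.74 with MRX34, a difference of 0.07 (SE 0.177). CDC25B, a phosphatase that activates CDK1, differed by -0.26 (SE 0.163). Both kinases overlapped the controls, and over the 8 genes of this group 5 were higher and 3 lower at a median of 0.04.

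Among kinesins 5 of 7 were higher with MRX34 and 2 lower, at a median of 0.15. KIF4A, a chromosome-bound motor of the midzone, read 8.62, 8.34 and 8.09 with buffer, 8.09, 8.38 and 8.70 with empty liposomes and 8.52, 9.0 and 8.51 with MRX34. MRX34 2 stood highest and the other MRX34 arrays lay among the controls, for a difference of 0.31 (SE 0.213, adjusted p 0.583). KIF18A, which damps chromosome movements at the plate, differed by 0.21 (SE 0.273) and KIF14, a motor needed for cytokinesis, by -0.25 (SE 0.211).

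The proliferation markers TOP2A and MKI67 differed in their values. TOP2A, the topoisomerase that untangles sister chromatids, read 11.60, 11.46 and 11.41 with buffer, 11.75, 11.42 and 11.65 with empty liposomes and 11.41, 11.79 and 11.37 with MRX34, a difference of -0.02 (SE 0.172) with fully overlapping groups. MKI67, which coats mitotic chromosomes, was dim: it read 5.76, 6.11 and 6.37 with buffer, 5.21, 5.49 and 6.30 with empty liposomes and 4.90, 5.19 and 5.67 with MRX34. It lay above background on 3 buffer arrays, 2 empty-liposome arrays and 1 MRX34 array, and the difference of -0.62 (SE 0.279, adjusted p 0.450) rests on values near background. The condensin subunits NCAPG and SMC4 differed by 0.23 (SE 0.262) and -0.10 (SE 0.184), and the other SMC4 probe past the filter by 0.20. Of the 4 tested genes of this group, 1 was higher and 3 lower.

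The arrays of AURKB, CENPA, CDC20 and UBE2C did not overlap between MRX34 and both controls. All 4 were lower, which is 8.70% of the members, while 2.12% of all genes were lower and 4.85% higher without overlap (6.97% in either direction). No member was higher in every MRX34 array than in every control array.

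Against each control alone 0 members passed limma's test as well, and 0 of all genes did (0%). MRX34 and empty liposomes differed at an unadjusted p under 0.05 in 4 members (8.70%, against 9.35% of all genes): NUF2 was higher, as 6.29% of all genes were, and TPX2, FOXM1 and UBE2C were lower, as 3.06% were. With the replicate number as a block, also 4 members reached that level, with CDCA8 in place of UBE2C, against 10.8% of all genes (15.3% in a fit of these 6 arrays). The differences were 0.96 (SE 0.313, adjusted p 0.469) for NUF2, -0.71 (SE 0.256, adjusted p 0.493) for TPX2, -0.60 (SE 0.241, adjusted p 0.519) for FOXM1 and -0.43 (SE 0.184, adjusted p 0.532) for UBE2C. TTK and CCNA2, cyclin A2, which works in S phase and G2, differed by 0.42 (SE 0.220) and 0.33 (SE 0.190). The member median was 0.06, with 25 higher and 21 lower, and 0.05 over all genes, of which 55% were higher. NUF2 was higher without overlap, as 9% of all genes were. CDC25B, AURKB, CENPA, TPX2, CDC20, UBE2C and ESPL1 were lower without overlap, as 5.41% of all genes were. Together these are 17.4% of the members, against 14.4% of all genes.

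MRX34 and buffer differed at that level in 3 members (6.52%, against 10.1% of all genes). HMMR was higher, at 0.55 (SE 0.241, adjusted p 0.481), where 5.84% of all genes were, but its other probe differed by 0.06. UBE2C and MKI67 were lower, at -0.54 (SE 0.184, adjusted p 0.449) and -0.82 (SE 0.323, adjusted p 0.462), where 4.31% of all genes were. MKI67 lay above background on 3 buffer arrays, 2 empty-liposome arrays and 1 MRX34 array. It thus passed the filter through the groups where it was higher, and its place in these counts rests on values near background. With only probes above background on all 9 arrays, AURKB stood in its place beside HMMR and UBE2C, against 14.1% of all genes. KIF4A and NUF2 differed by 0.33 (SE 0.246) and 0.45 (SE 0.313), and AURKB by -0.39 (SE 0.184, adjusted p 0.499). Here 23 members were higher and 23 lower, at a median of -5e-04, against 54.1% higher and a median of 0.04 over all genes. FOXM1, AURKB, CENPA, CDC20, UBE2C and MKI67 were lower without overlap, 13% of the members, against 8.31% of all genes. No member was higher without overlap, where 13% of all genes were, and 21.3% of all genes had no overlap in either direction. The 2 comparisons share the MRX34 arrays, so their values are given side by side only.

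**Figure D4:**
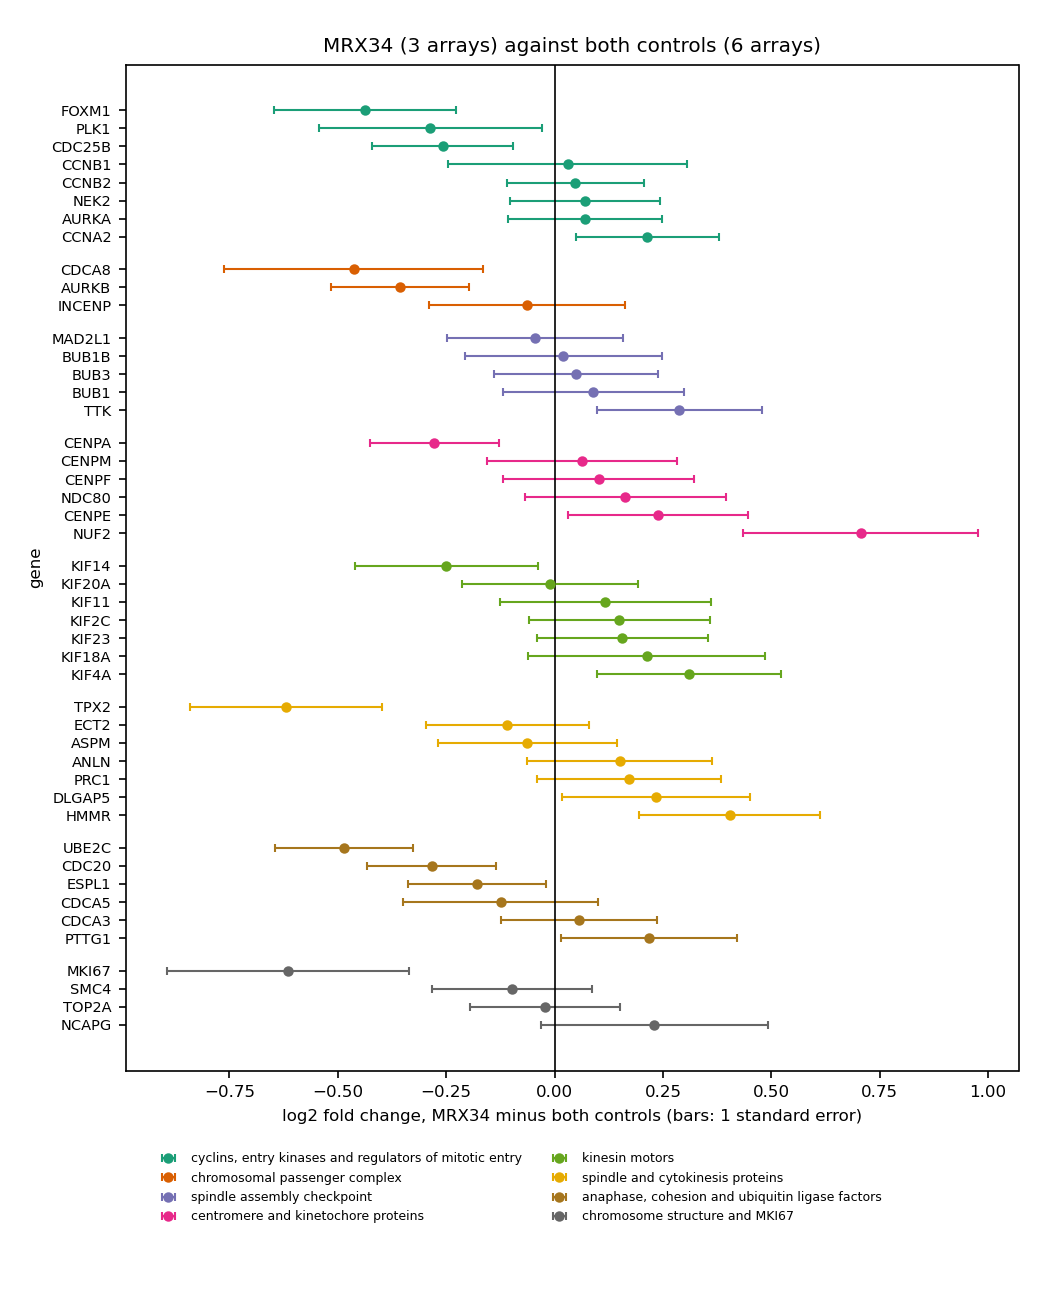
Log2 difference between MRX34 (3 arrays) and both controls (6 arrays) for the 46 tested members, coloured by role; bars are 1 standard error and the vertical line marks 0. The points run from -0.62 for TPX2 to 0.71 for NUF2, with 26 above 0 and 20 below.

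The vehicle comparison, empty liposomes against buffer, had 0 members past limma's test and 0 of all genes (0%), and 2 members at an unadjusted p under 0.05 (4.35%, against 5.77% of all genes). Both were lower with empty liposomes, where 3.03% of all genes were lower and 2.74% higher. By direction 21 members were higher and 25 lower, at a median of -0.01, and 46.9% of all genes were higher. MAD2L1 read 10.23, 10.62 and 10.61 with buffer and 9.62, 9.86 and 9.47 with empty liposomes, and 9.64, 10.12 and 10.30 with MRX34. It was lower with empty liposomes without overlap, by -0.84 (SE 0.235, adjusted p 0.766), and its other probe was lower by -1.56. Against both controls the probes of MAD2L1 disagreed in sign, at -0.05 and 0.53. KIF11, the kinesin that pushes spindle poles apart, read 8.22, 8.20 and 8.48 with buffer, 7.48, 8.05 and 7.47 with empty liposomes and 7.65, 8.63 and 8.02 with MRX34. Empty liposomes lay below buffer on all 3 arrays, by -0.64 (SE 0.281, adjusted p 0.766).

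On the higher side CENPF, a large kinetochore and matrix protein, read 8.61, 8.72 and 8.65 with buffer, 9.06, 9.12 and 8.81 with empty liposomes and 8.72, 9.50 and 8.57 with MRX34. It was higher with empty liposomes than with buffer without overlap, by 0.34 (SE 0.254, adjusted p 0.803), and MRX34 spanned both. CCNA2 read 10.03, 10.11 and 10.03 with buffer, 10.00, 9.81 and 9.67 with empty liposomes and 9.93, 10.29 and 10.25 with MRX34. Empty liposomes lay below buffer on every array, by -0.23 (SE 0.190). FOXM1, HMMR and NUF2 differed by 0.33 (SE 0.241), 0.30 (SE 0.241) and -0.50 (SE 0.313), with the other probes of FOXM1 and HMMR at 0.08 and -0.08. CCNA2, MAD2L1 and KIF11 were lower without overlap, where 5.55% of all genes were, and CENPF and ESPL1 higher, where 6.1% were. In all this is 10.9% of the members against 11.7% of all genes.

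The MRX34 arrays differed among themselves more than the group means did. The median deviation of the members from their own means was 0.22 on MRX34 2, -0.07 on MRX34 1 and -0.13 on MRX34 3, while the 6 control arrays lay between -0.05 and 0.04. On MRX34 2, 33 of 46 members lay above their own mean, as 57.6% of all genes did, and it was the highest array for 21 of them (45.7%, against 25% of all genes). Those 21 include CCNA2, CCNB2, BUB1, CENPF, NDC80, KIF11, KIF23, PRC1, ANLN and NCAPG. It was the lowest array for 5 members (10.9%, against 16.3% of all genes): FOXM1, AURKB, CDCA8, CENPM and TPX2. Of these 5, all but CENPM were also lower with MRX34 as a group, a value that includes this array. Empty liposomes 2 was the lowest array of its own group for the same 5 members. Between empty liposomes and MRX34, the members' deviations from their group means correlated at 0.41, 0.73 and 0.46 for replicates 1, 2 and 3. The labels do not say whether replicate numbers pair the groups. MRX34 3 was highest for 0 members and lowest for 10 (21.7%, against 4.89% of all genes), among them PLK1, CENPE, KIF14, ASPM, ECT2 and SMC4.

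**Figure D5:**
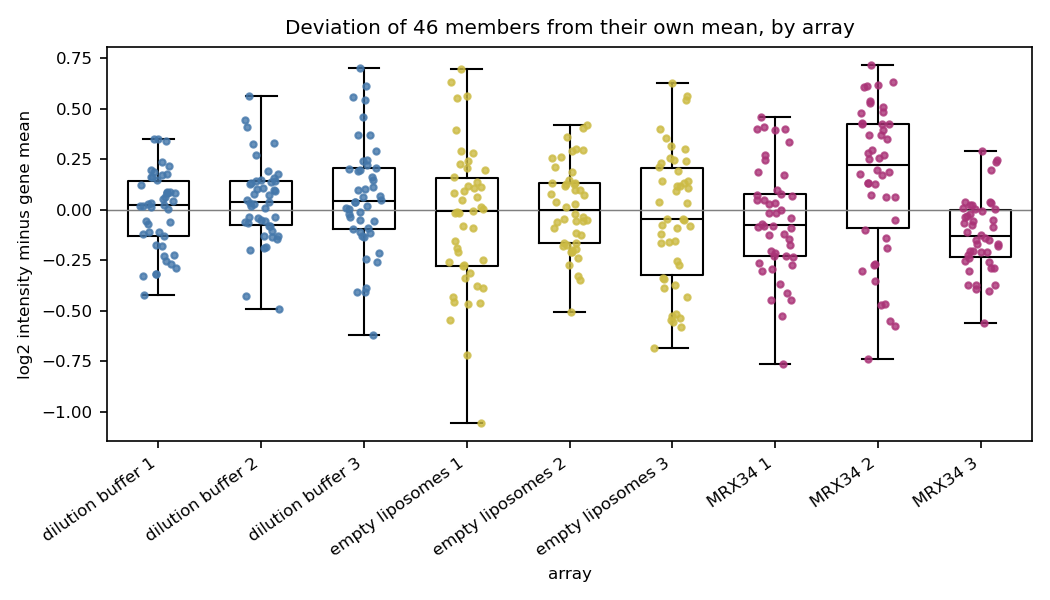
Deviation of each member from its own mean over 9 arrays, in log2 units, by array; points are genes, boxes the quartiles with the median, and whiskers the full range. The median is 0.22 on MRX34 2 and -0.13 on MRX34 3, against -0.05 to 0.04 on the 6 control arrays.

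MRX34 2 also stood high for genes outside the list. Its median deviation was 0.09 over all genes, 0.09 for DNA replication and S phase genes and 0.21 for 66 other genes of G2 and mitosis. Without MRX34 2 the median difference of the members against both controls turned to -0.11, with KIF14 and UBE2C at an unadjusted p under 0.05, a level that 6.88% of all genes reached. Without MRX34 1 no member reached it, against 9.66% of all genes, and without MRX34 3 there were 6, against 9.78% of all genes. The liver level, the mean log2 intensity of GNMT and OTC, was 11.0, 10.1 and 7.73 on the MRX34 arrays, and array brightness before normalization, in log2 units, was 8.34, 9.0 and 8.95. With the liver level in the fit 3 members reached an unadjusted p under 0.05, against 7.63% of all genes. With brightness 4 did, against 11.0% of all genes, and 0 passed the test with either covariate.

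The other lists of cell cycle genes had 0 members past limma's test against both controls, with 0.246 as their smallest adjusted p. Among 66 of 70 other G2 and mitosis genes tested, 36 were higher and 30 lower with MRX34 against both controls, at a median of 0.06. Against empty liposomes 42 were higher and 24 lower (median 0.14), and against buffer 26 were higher and 40 lower (median -0.09). CENPU, a centromere protein, differed by 0.94 (SE 0.240, adjusted p 0.302) and PIMREG, a mitotic regulator, by -0.87 (SE 0.239, adjusted p 0.326). Of 14 anaphase-promoting complex genes 12 were higher and 2 lower, at a median of 0.15. The subunits ANAPC4 and CDC16 differed by 0.44 (SE 0.192) and 0.35 (SE 0.176).

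Of 12 MuvB and DREAM genes 5 were higher and 7 lower, at a median of -0.02. LIN54, the subunit that contacts the CHR, differed by 0.71 (SE 0.156, adjusted p 0.246) and LIN52, another MuvB subunit, by -0.53 (SE 0.205). Of 13 CDK inhibitors and p53 targets 8 were higher, at a median of 0.24, with CDKN1A, which encodes p21, at 0.89 (SE 0.288, adjusted p 0.374) and CDKN2D, an inhibitor of CDK4 and CDK6, at 0.51 (SE 0.212). In the 8 G1 cyclins and kinases 4 were higher and 4 lower, with CCND1, cyclin D1, at -0.33 (SE 0.198, adjusted p 0.54) and CCNE2, cyclin E2, at 0.50 (SE 0.231). CDK6, named above with cyclin D1 as paired by miR-34a, was at 0.15 (SE 0.18). Of 42 DNA replication and S phase genes 22 were higher and 20 lower, at a median of 0.03, with PRIM1, a primase subunit, at 0.70 (SE 0.209, adjusted p 0.356) and E2F1, the G1 to S transcription factor, at 1.16 (SE 0.350, adjusted p 0.359).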

How the data were processed

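Expression was measured on 9 arrays, 3 per group, grouped by the treatment in the labels. The deposited table holds intensity values with, per the file headers, a detection p-value beside each. Its sorted columns agree to within 1.66 units, as they would after quantile normalization, although the table is called non-normalized. Neither scanner software nor normalization is stated in the sources used here. Background was corrected by normexp with the detection p-values and an offset of 16 (limma 3.58.1 in R 4.3.3), followed by quantile normalization and log2. Probes with a detection p-value under 0.05 on at least 3 arrays were kept: 19802 of 43906 named probes, and the brightest per gene gave 15387 genes. Array number limits precision.

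limma was fitted to all 9 arrays, tests were two-sided, and p-values were Benjamini-Hochberg adjusted across the 15387 genes. Members and lists were chosen with earlier results of these data known. Every array value is given for the 3 members with the smallest p in each direction of each comparison and for CCNB1, PLK1, AURKA, BUB1, CDC20, FOXM1, MKI67 and TOP2A; the smallest-p member of each role group and 2 of each other list are named. Other members, and CDK6, were named after their values were seen. Equal replicate numbers of empty liposomes and MRX34 deviated together (correlations over all genes 0.44, 0.49 and 0.28), so a replicate block was tried. Alternatives changed background, normalization, source table, filter, probe rule, arrays, variance model, weights and covariates. Each started from the deposited columns that already agree when sorted, or quantile normalized the series table. No alternative was therefore free of quantile normalization, and dependence on that step was not tested.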

Additional observations from a re-analysis of the deposited data

Results flagged for a closer look

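In the 6 control arrays, 46 members were examined for an array far from the others, and chance marks about 1 in 20 such groups. AURKA was at 11.2 on empty liposomes 1, with the other 5 control arrays at 10.7 to 10.8, a gap of 0.808 of the whole range. BUB1 was at 8.92 on empty liposomes 2, with the others at 8.43 to 8.61, a gap of 0.633 of the range.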

How the results depend on the processing

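Against both controls, the number of genes called was 0 in the reported fit and 2 without background correction, with normexp run without the detection p-values and at an offset of 50, with the series table or with only probes above background on all 9 arrays, 1 with trended robust variance and 1464 with array weights, and 0 to 1 when single arrays were left out. Against empty liposomes it was 3 with trended robust variance and 267 with array weights, and 0 to 2 without single arrays; against buffer it was 2827 and for empty liposomes against buffer 6, both with array weights. The weights were highest for buffer 2 (8.13) and MRX34 3 (4.65). With them 3 of 46 members were called against both controls (FOXM1, NUF2 and UBE2C, at -0.47, 0.59 and -0.47), beside 1464 of all 15387 genes. Against buffer 5 of 46 were called (ASPM, HMMR, SMC4, TPX2 and UBE2C), beside 2827 of all 15387 genes. No other alternative called a member. With the replicate block, which pairs equal numbers, 0 genes and 0 members were called in each comparison.

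The member median against both controls was -0.10 with array weights, -0.12 without empty liposomes 1 and MRX34 2, and -0.11 to 0.094 without single arrays. Against buffer it was -0.16 and -0.12 in the first 2 settings and -0.12 to 0.045 without single arrays, and against empty liposomes -0.084 without that pair and -0.059 to 0.11 without single arrays. Directions against both controls turned for AURKA with array weights (-0.0095), for BUB1 with array weights (-0.16), without that pair (-0.17) and without single arrays (-0.12 to 0.26), and for TOP2A without single arrays (-0.16 to 0.055). CCNB1 turned with cyclic loess (-0.042), array weights (-0.12), array brightness (-0.11), without that pair (-0.28), without buffer 3 and empty liposomes 1 (-0.052) and without single arrays (-0.16 to 0.20). The cause was not tested. Of 816 values of 19 named members, 794 kept direction and side of the threshold. Counting any of 3 CHR spellings raised the promoter share to 85.1%; this and the counts at an unadjusted p were added after seeing the data. Depth limits MKI67 and NCAPH, which lie near background.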
